A study of Mus musculus with 12 samples.

Results

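Alternative exon ends are exons of one gene that overlap but stop at different splice sites, and they were followed here in RNA of mouse cumulus cells, the somatic cells around the oocyte. Each exon form carried its own FPKM value (fragments per unit of exon length, scaled to all mapped fragments). Of 12111 annotated events of this class, 6802 had a mean of at least 1 FPKM over the 6 libraries, with an unlisted event taken as 0. The members were the 2138 of those that overlapped another such event of the same gene, in 997 overlapping sets from 891 genes. The forms just above the mean of 1 FPKM belonged to Ifngr1, Mdm4 and Trrap (1.0029, 1.00342 and 1.00472 FPKM), and those just below it to Grik5, Mtg2 and Zfp40 (0.999278, 0.999144 and 0.996148 FPKM). The measure was the share of each form, in percent of its set's summed FPKM.

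The cells came from Kunming mice and were labelled as cumulus cells and as granulosa cells of antral follicles. One group had been given FSH (follicle-stimulating hormone) together with FBS (fetal bovine serum) for 18 hours, in 3 libraries. The other group was untreated, also in 3 libraries, with no culture time in the labels. FSH and serum were only given together, so their parts cannot be told apart. Ages were not in the sources used here. All were total RNA libraries; the small-RNA ones were not used here.

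A spliced exon begins where the spliceosome joins it at an acceptor site, after an AG at the end of the upstream intron, and it ends at a donor site, before the GT that opens the downstream intron. Where 2 acceptors or 2 donors lie near each other, the choice between them lengthens or shortens the exon while the rest of the transcript stays as it is. An extra stretch whose length is a multiple of 3 keeps the reading frame of a coding exon, and other lengths shift it. SR proteins (serine- and arginine-rich splicing factors), hnRNPs (nuclear RNA-binding proteins) and the core factors U2AF and U1 are known to bias such choices.

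Splice sites could be read for a few members from the promoter windows of RefSeq (GRCm38.p6), and 3 tested sets had both competing sites inside a window. They are shown as examples of 2 competing sites beside one exon, here near an annotated gene start. Capitals mark the AG or GT at the exon edge. Acceptor lines hold 20 intron and 9 exon bases, and donor lines hold 9 exon and 11 intron bases, on the transcribed strand.
Ctsa acceptor of the 127-base form, chr2:164833704-164833732, plus strand: tgaccactcccgaccctcAGgcccacaga
Ctsa acceptor of the 43-base form, chr2:164833788-164833816, plus strand: gagctacacatgacttccAGtccaaaggc
Hmgn3 donor of the 114-base form, chr9:83110982-83111001, minus strand: gttgaagagGTactttccac
Hmgn3 donor of the 73-base form, chr9:83111023-83111042, minus strand: gagaggaagGTactgcacca
Rmdn2 donor of the 65-base form, chr17:79668007-79668026, plus strand: caagggaagGTactgttata
Rmdn2 donor of the 78-base form, chr17:79668020-79668039, plus strand: tgttatacaGTaagttactg
The sources used here name no genome build. Edges of all annotated events of this class, members or not, were checked in these windows. All 88 acceptor edges that fell there were preceded by AG, and 61 of 63 donor edges (96.8%) were followed by GT. The coordinates below are the files' own.

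These 3 sets also show how far a share could move between libraries of one group. In Ctsa, which encodes the lysosomal protease cathepsin A, the 127-base form made up 15.9%, 95.7% and 99% of the set in the libraries given FSH and FBS and 85.9%, 6.61% and 99.5% in the untreated ones. Library 1 was low in one group and library 2 in the other, so the groups overlapped from end to end. The 114-base form of Hmgn3, a nucleosome-binding protein, was at 43.4%, 22.4% and 32.7% with FSH and FBS and at 87.1%, 40.8% and 38.8% without. The 78-base form of Rmdn2, whose donor lies 13 bases downstream of the other, led in every library, at 100%, 84.5% and 67.1% against 87.0%, 81.8% and 100%.

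Most sets were simple. Of the 997 sets, 896 (89.9%) had 2 forms, 72 had 3, 21 had 4 and 6 had 5, while 1 had 6 and 1 had 10. The forms differed at the acceptor in 554 sets (55.6%), at the donor in 372 (37.3%) and at both ends in 71. In 57 sets a long form bridged shorter ones that did not touch each other, so one transcript could enter the set total through several exons.

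Length differences had a preferred size. Among the 533 acceptor sets with 2 forms the median difference was 54 bases, and 271 (50.8%) differed by a multiple of 3. Exactly 3 bases separated the forms in 22 acceptor sets and in 0 of 361 donor sets, where the median was 71 bases, 176 sets (48.8%) differed by a multiple of 3 and 6 sets by 4 bases. Multiples of 3 made up 54.3% of the 571 sets that differed by less than 100 bases and 42.2% of the 325 that differed by 100 or more. Acceptors 3 bases apart are known as tandem NAGNAG sites and donors 4 bases apart as GTNNGT sites.

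**Figure D1:**
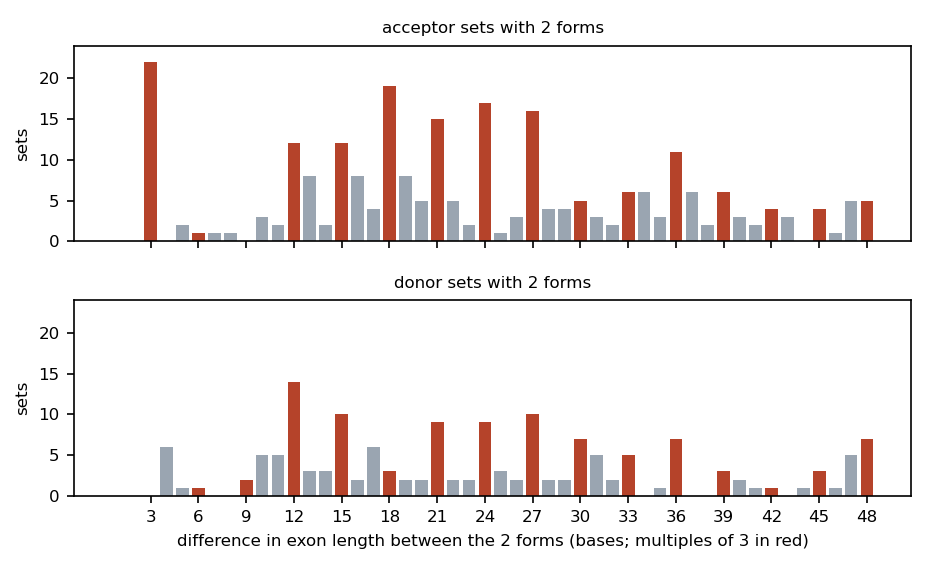
Number of 2-form sets (y axis) at each difference in exon length up to 48 bases (x axis), for acceptor sets above and donor sets below, with multiples of 3 in red. The 22 acceptor sets at 3 bases form the highest bar, and no donor set stands there.

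One form usually led. Over the 723 sets with a total of at least 1 FPKM in every library (1551 forms, 661 genes), on which all tests were run, the leading form held a median of 78.3% of its set (quartiles 64.8% and 88.4%). The same form was ahead in all 6 libraries in 436 sets (60.3%). In the 652 tested sets with 2 forms, the longer form led in 295 (45.2%). The median leading share was 76.6% in the 326 sets that differed by a multiple of 3 and 83.1% in the other 326. This is a description over sets and was not tested.

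Libraries did not all stand alike. Libraries 1 and 2 of each group differed by a median of 6.76 to 7.61 percentage points per form, against 11 to 12.5 between library 3 and another of its group and 9.17 to 13.4 between groups. The SD of the log2 ratio of set totals was 0.373 to 0.414 between libraries 1 and 2 and 0.643 to 0.838 to library 3. Libraries 1 and 2 were therefore averaged and counted as 1 sample, which leaves 2 samples a group, and every mean ± SD below is over those 2. Between libraries 1 and 2 themselves, 19.0% to 22.8% of forms differed by over 20 points.

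**Figure D2:**
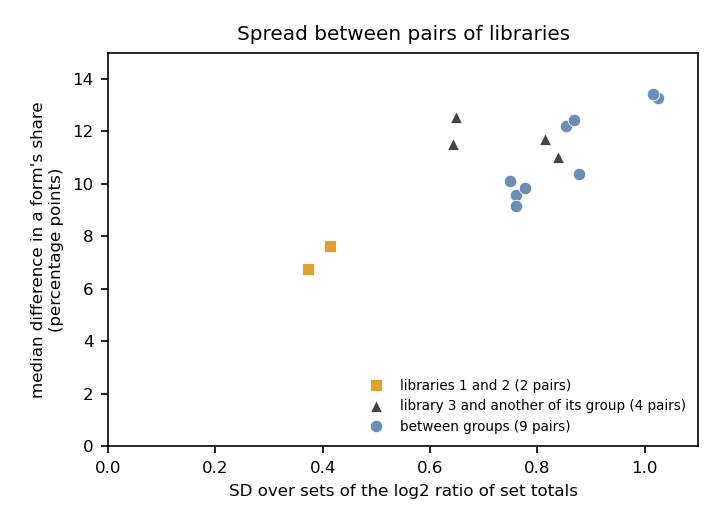
Each point is a pair of libraries, with the SD over sets of the log2 ratio of set totals on the x axis and the median difference in a form's share in percentage points on the y axis. The 2 pairs of libraries 1 and 2 lie lowest, at 6.76 and 7.61 points, and the pairs with library 3 of the same group lie among the pairs between groups on the y axis, at 11 to 12.5 points.

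Untreated library 2 carried other event numbers than the rest. The other 5 libraries used the same event number for every member form that any 2 of them listed, and untreated library 2 shared 0 event numbers with any of them. It listed no form of 158 sets, against 21 to 79 in the others. Of the 2138 forms, 1188 were listed in all 6 libraries and 180 in every library but that one. Library 3 of the treated group left 535 member forms unlisted, untreated library 3 left 453, and the others 225 to 455. No event was listed at 0 FPKM in any library, so an unlisted form may be absent from a library or only from its catalogue. Results are therefore also given for forms listed everywhere and without untreated library 2.

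The comparison of the groups asked whether FSH and FBS went with a different choice of exon end. No form passed: limma on the log ratio of a form to the rest of its set, with Benjamini-Hochberg adjustment, called 0 of 1551 forms (0%) and the lowest adjusted p was 0.791. At an unadjusted p under 0.05 there were 67 forms (4.32%). With all 6 libraries as separate replicates 0 forms were called, 110 passed unadjusted and the lowest adjusted p was 0.0522. With the share itself in place of its log ratio, limma called 4 forms, which were both forms of Arpc1b and both of Cnbp (Benjamini-Hochberg adjusted p = 0.0357 for each).

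Without a call, the spread of values still says which sets stood farthest apart. The largest change of a form's mean share had a median of 9.81 points over sets and was over 20 points in 160 sets (22.1%). In 147 of 723 sets (20.3%) a form was higher in all 3 libraries of one group than in all 3 of the other. In 11 sets the leading form was one in every treated library and another in every untreated library, and these were Arpc1b, Rbm39, Cnbp, Odf2, Mtch1, Slc25a38, Smarcc2, Cdk11b, Cep250, Hps4 and Ppcdc. These 11 were singled out after their values were seen.

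Arpc1b, a subunit of the Arp2/3 complex that starts branched actin filaments, had 2 acceptors 12 bases apart at chr5:145125879-145125966. The 88-base form held 21.2%, 8.18% and 25.2% of the set in the libraries given FSH and FBS and 95.2%, 95.2% and 92.4% in the untreated ones. All treated libraries were low, all untreated ones were high, and the gap between the groups was wider than the spread within either. In FPKM, the 88-base form was at 11.2, 4.87 and 24 against 44.9, 45.3 and 40.0, and the 76-base form was at 41.7, 54.6 and 71.4 against 2.24, 2.26 and 3.28. The mean share was 19.9% ± 7.43 against 93.8% ± 2.01 (SD, n = 2 each), a log2 ratio lower by 5.81 with a limma standard error of 0.89, and the Benjamini-Hochberg adjusted p from limma was 0.791. The total of the set differed by a log2 fold change of 0.68 (limma adjusted p = 0.605).

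Rbm39, an RNA-binding protein that takes part in splicing, had 2 acceptors 18 bases apart at chr2:156154239-156154289 on the minus strand. The 51-base form was at 2.24%, 1.85% and 29.0% with FSH and FBS and at 87.3%, 97.3% and 91.0% without. Library 3 of the treated group stood apart from the other treated ones and was still below every untreated library. The 33-base form was at 62.4, 59.9 and 64.6 FPKM against 12.8, 1.89 and 4.52 FPKM. The set total ranged from 61.0 to 91.0 FPKM with FSH and FBS and from 50.4 to 101 FPKM without, so the totals overlapped where the shares did not.

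Cnbp, a zinc-finger protein that binds single-stranded nucleic acids, turned the other way. Its donors lay 21 bases apart at chr6:87845656-87845793, and the 138-base form held 80.4%, 80.2% and 90.5% with FSH and FBS and 25.7%, 27.2% and 23.9% without. The 138-base form was at 130, 132 and 229 FPKM against 32.2, 35.6 and 36.2 FPKM, and the 117-base form at 31.7, 32.5 and 24 FPKM against 93.1, 95.6 and 115 FPKM. Neither form overlapped between the groups. The differences of 12, 18 and 21 bases in Arpc1b, Rbm39 and Cnbp are multiples of 3, as were those in 326 of the 652 tested sets with 2 forms. The log2 ratio of the longer form was higher by 4.18 (limma standard error 0.92, Benjamini-Hochberg adjusted p = 0.856).

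Rpl22l1, a paralog of ribosomal protein L22, had acceptors 67 bases apart at chr3:28806670-28806858, a difference that shifts the frame of a coding exon. The 189-base form was at 7.57%, 4.54% and 4.5% with FSH and FBS and at 47.7%, 44.9% and 37.9% without. Its level was 6.98, 3.93 and 8.30 FPKM against 18.9, 16 and 17.3 FPKM, while the 122-base form was at 85.3, 82.6 and 176 FPKM against 20.7, 19.7 and 28.3 FPKM. Untreated libraries thus held the 2 forms near balance, and treated libraries held almost only the shorter one. The mean share was 5.28% ± 1.1 against 42.1% ± 5.94 (SD, n = 2 each; limma adjusted p = 0.856). The set total had a log2 fold change of 1.61 (limma adjusted p = 0.218).

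**Figure D3:**
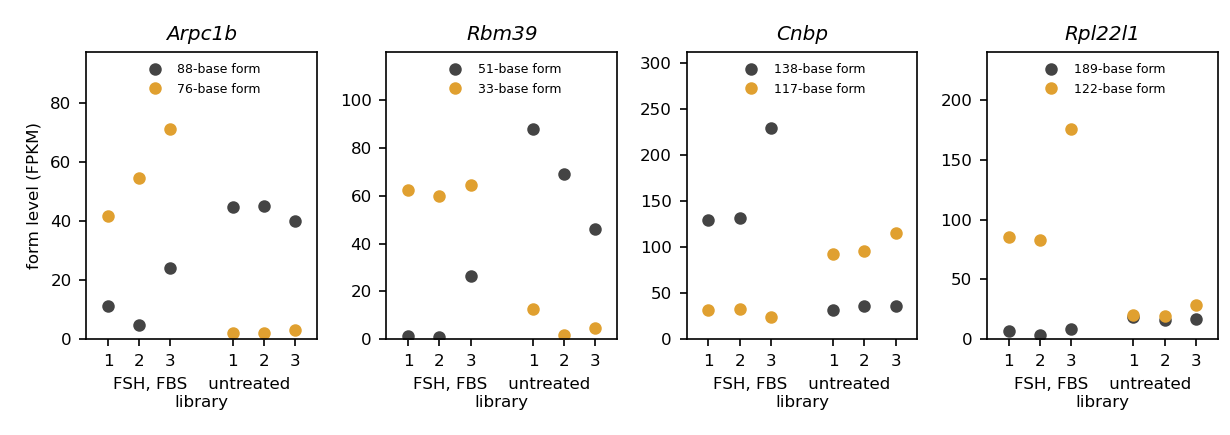
Level in FPKM (y axis) of the longer form (dark) and the shorter form (yellow) of 4 genes in each library (x axis, treated libraries left, untreated right). In Arpc1b and Rbm39 the longer form is the higher one only in untreated libraries, in Cnbp only in treated ones, and in Rpl22l1 the shorter form reaches 82.6 to 176 FPKM with FSH and FBS.

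Of the 15 sets with the widest difference among those whose groups did not overlap and whose total was at least 5 FPKM everywhere, 8 differed at the acceptor and 7 at the donor, and 7 differed by a multiple of 3. The longer form was lower with FSH and FBS in 11 and higher in 4. Unadjusted limma p-values ran from 0.00102 to 0.230 and Benjamini-Hochberg adjusted ones from 0.791 to 0.880. The sets were chosen for this separation, so their direction is a description. Of all 652 tested sets with 2 forms, 391 differed at the acceptor, 259 at the donor and 326 by a multiple of 3. The longer form was lower in all 3 treated libraries in 87 of the 652 (13.3%) and higher in 32 (4.91%). The counts in the 15 sets say little beside these.

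The other sets with a lower longer form had several kinds of product. Odf2, a centrosome and cilium protein, had a donor form with 57 extra bases at 19.5%, 22.2% and 5.52% against 77.7%, 50.6% and 96.4%. Cyb5r1, a cytochrome b5 reductase, had an acceptor form with 587 extra bases at 9.93%, 0.497% and 9.52% against 46.4%, 77.9% and 48.7%. Slc25a38, the mitochondrial glycine carrier of haem synthesis, had 374 extra bases at 15.6%, 27.5% and 0% against 58.6%, 59.0% and 54.1%. In these 3 sets the nearest libraries of the groups were still more than 20 points apart. Mtch1, a mitochondrial outer-membrane protein, came closer, with its 51 extra bases at 44.2%, 41.6% and 32.0% against 97.2%, 65.2% and 55.5%. Lrrc45, a centrosome linker protein, had 390 extra bases at 0%, 16.2% and 0% against 60.0%, 52.8% and 18.5%.

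In 3 further sets the nearest libraries of the groups almost met. Echdc2 had its 278 extra bases at 0.0212%, 0.0192% and 0.0146% against 0.0272%, 22.1% and 67.9%, so untreated library 1 was almost as low as the treated libraries. Zc3h7a, a zinc-finger RNA-binding protein, had 62 extra bases at 40.3%, 29.4% and 99.1% against 99.9%, 99.2% and 99.7%, and its difference rests on treated libraries 1 and 2. Flcn, the tumour suppressor folliculin, had 311 extra bases at 10.2%, 15.6% and 0% against 23.1%, 16.5% and 53.0%.

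The longer form was higher in Srrt, Sfswap and Trabd beside Cnbp. Srrt, the cap-complex partner ARS2, had 21 extra acceptor bases at 87.4%, 65.0% and 80.3% against 19.2%, 16.3% and 50.9%. Sfswap, a splicing regulator, had 47 extra donor bases at 99.4%, 99.3% and 100% against 94.7%, 84.3% and 8.67%, which rests on untreated library 3. Trabd had an 11-base longer donor form at 47.0%, 19.8% and 29.4%, and it was not listed in any untreated library while the shorter form was at 13.5, 13.5 and 15.4 FPKM there.

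**Figure D4:**
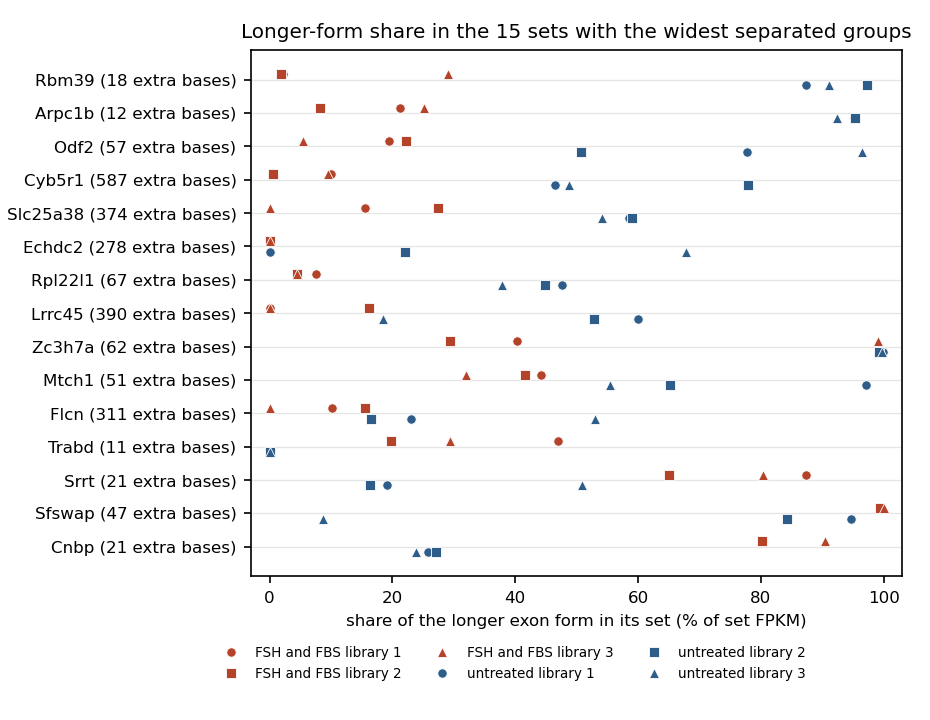
Share of the longer form in its set in percent (x axis) for each library (treated in red, untreated in blue, one marker shape per replicate number). The y axis holds the 15 sets with the largest difference of mean shares among those whose groups did not overlap, with the extra bases. Arpc1b, Rpl22l1 and Cnbp keep each group within a narrow range, treated library 3 of Rbm39 stands apart at 29.0%, and Echdc2, Zc3h7a and Sfswap spread over most of the axis within one group.

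Among the turned sets outside those 15, Smarcc2, a subunit of BAF chromatin remodelling complexes, had close values within both groups. Its donor form with 342 extra bases was at 53.9%, 59.4% and 51.6% with FSH and FBS and at 40.1%, 41.8% and 38.3% without. Cdk11b, a cyclin-dependent kinase, had its longer donor form at 23.9%, 38.1% and 32.1% against 52.4%, 50.7% and 54.1%. Ppcdc, an enzyme of coenzyme A synthesis, had its longer acceptor form at 39.2%, 42.0% and 25.4% against 84.6%, 75.5% and 82.3%. Hps4 had its longer acceptor form at 27.2%, 49.6% and 0% against 73.7%, 99.9% and 99.9%, and Cep250 at 36.8%, 32.1% and 0% against 56.2%, 56.5% and 56.1%, with the longer form unlisted in treated library 3 in both genes.

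Over all 652 tested sets with 2 forms, longer forms took a smaller part of the RNA in the treated libraries. The mean share of the longer form was 44.8%, 44.6% and 43.8% with FSH and FBS and 48.6%, 48.3% and 47.8% without. No treated library reached an untreated one. The group means were 44.2% ± 0.685 and 48.1% ± 0.449 (SD, n = 2 each), a difference of -3.88 points with a two-sided exact permutation p of 0.333, which is the smallest that 2 samples against 2 can give. Over the 358 sets whose forms were listed in all 6 libraries the difference was -3.14 points. Without untreated library 2 it was -3.92 points over 759 sets.

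Set by set, the longer form was lower in all 3 treated libraries than in all 3 untreated ones in 87 of 652 sets (13.3%) and higher in all 3 in 32 (4.91%). Among the 358 sets listed everywhere the counts were 54 and 19. Without untreated library 2 they were 123 and 56 of 759. The direction was the same at both kinds of edge: acceptor sets gave 44.0% ± 0.629 against 48.7% ± 0.538 (391 sets) and donor sets 45.0% ± 0.755 against 47.5% ± 0.262 (259 sets). The difference was -2.64 points in sets whose lengths differed by a multiple of 3 and -5.12 points in the others.

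The difference was wider where the extra stretch was long. Where the forms differed by less than 100 bases (437 sets) the longer form was at 50.8% ± 0.518 against 52.6% ± 0.184. Within that class the 55 sets that differed by 12 bases or less gave 51.7% ± 2.21 against 55.9% ± 4.08, and their libraries overlapped between the groups. Where they differed by 100 bases or more (215 sets) it was at 33.3%, 32.8% and 28.6% in the treated libraries and 40.2%, 40.3% and 37.8% in the untreated ones, with means of 30.8% ± 3.13 and 39.0% ± 1.73 and a difference of -8.20 points (exact permutation p = 0.333, the smallest possible). Long extra stretches at acceptors gave 28.6% ± 4.17 against 39.4% ± 1.97 (113 sets) and at donors 33.7% ± 1.94 against 38.9% ± 1.39 (101 sets). Over the 97 long-difference sets listed in all 6 libraries the difference was -6.33 points. The split at 100 bases was chosen with the values in view, and the change with size was not tested.

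Among sets that differed by 500 bases or more, the longer form was lower in every treated library in 15 of 60 and higher in 0. The corresponding counts were 25 and 3 of 155 at 100 or more and under 500 bases, 42 and 27 of 382 at 13 to 99 bases and 5 and 2 of 55 at 1 to 12 bases. A form that is much longer may span a whole intron, and the files do not separate such forms from a far splice site. In the 34 tested sets where the longest form bridged exons that do not touch, it held 9.09% ± 3.59 against 14.1% ± 0.586. Member forms were more often unlisted in library 3 of the treated group, and in the class of 500 bases or more its longer-form share was 9.97%, against 19.3% and 19.96% in the other treated libraries and 29.5%, 29.4% and 20.2% in the untreated ones. The part of incomplete listing in the group difference was not tested.

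**Figure D5:**
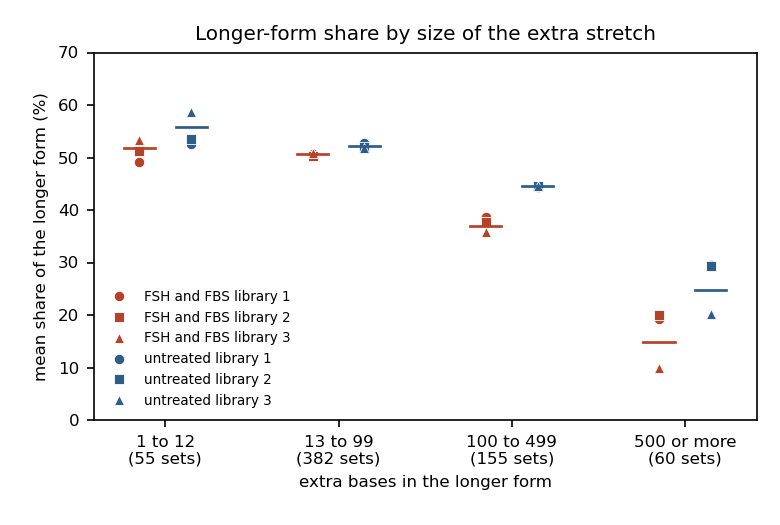
Mean share of the longer form in percent (y axis) in sets grouped by the number of extra bases (x axis), for each library, with a line at the group mean in which libraries 1 and 2 count as 1 sample. At 100 or more and under 500 bases the treated libraries lie at 35.8% to 38.7% and the untreated ones at 44.3% to 44.6%, and in the class of 500 bases or more the treated libraries lie at 9.97% to 19.96%.

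Several genes held a separated form with over 500 extra bases. Ivns1abp, a kelch protein named for its binding to an influenza protein, had a form with 962 extra acceptor bases at 4.82%, 5.11% and 13.1% with FSH and FBS and 32.2%, 32.9% and 17.8% without. That form was at 4.09, 4.56 and 10.02 FPKM against 94.4, 95.8 and 30.3 FPKM. Nxf1, the main mRNA export receptor, had a donor form with 1802 extra bases at 33.5%, 41.0% and 8.39% against 52.2%, 41.7% and 50.5%, where treated library 2 and untreated library 2 nearly met. Stxbp2, a partner of syntaxins in exocytosis, had none of its form with 562 extra bases listed in any treated library and 13.7%, 17.9% and 31.5% in the untreated ones. Relb, an NF-kappa-B subunit, had 966 extra bases at 5.66%, 8.45% and 0% against 30.5%, 22.3% and 22.6%.

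Of 88 genes of splicing factors and RNA-binding proteins, 33 had an overlapping set, with 44 sets in all and 34 tested. In 7 of the 34 (20.6%) a form was separated between the groups, against 20.3% of all tested sets, and the median of the largest share change was 7.95 points against 9.81 over all sets. With 2 forms, the longer one was lower in 4 sets (Rbm39, Clk1, Celf1 and Acin1) and higher in 0. The remaining 3 sets were in Srsf7, Hnrnpa2b1 and Tial1, each with more than 2 forms. Over all 652 tested sets with 2 forms, the longer form was lower in 13.3% and higher in 4.91%. The direction in these few sets says little beside those shares.

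Clk1, a kinase that phosphorylates SR proteins, had a donor form with 962 extra bases at 5.16%, 0% and 0% with FSH and FBS and at 40.5%, 25.5% and 10.8% without. Its level was 2.12 FPKM in treated library 1, unlisted in the other treated libraries and 37.7, 25.6 and 5.68 FPKM in the untreated ones. The shorter form was at 39.0, 50.2 and 33.4 FPKM against 55.4, 75 and 46.8 FPKM, so the groups were separated for the longer form and overlapped for the shorter one in level. Acin1, a protein of the exon junction complex, had 39 extra acceptor bases at 1.03%, 2.37% and 0.0353% against 17.9%, 58.0% and 100%, with the untreated libraries far from each other. Celf1, a regulator of splicing and mRNA decay, had 12 extra bases at 89.7%, 92% and 81.2% against 100%, 92.6% and 100%.

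In Srsf7, an SR protein, 4 forms made up a bridged set. The 817-base form was unlisted in every treated library and at 2.79%, 4.56% and 3.72% in the untreated ones, and the 769-base form was at 6.57%, 7.23% and 0% against 15.3%, 15.2% and 26.7%. The 75-base form was at 43.4%, 42.8% and 50.0% against 34.7%, 34.8% and 23.3%. The 177-base form was at 50.0% in every treated library and at 47.2%, 45.4% and 46.3% in the untreated ones. Both long forms were therefore lower and both short forms higher in all treated libraries. The 75-base and 177-base forms do not touch each other, so one transcript can hold both. A share of 50.0% for each, as in treated library 3, then means that no long form was listed. In another Srsf7 set, 3 donors gave forms of 111, 102 and 78 bases, whose mean shares were 34.2% ± 1.81, 52.4% ± 2.86 and 13.4% ± 4.67 with FSH and FBS and 28.0% ± 11, 60.5% ± 12.3 and 11.6% ± 1.32 without, and no form was separated there.

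Hnrnpa2b1, an hnRNP, had 5 forms in a bridged set. The 83-base form held 76.8%, 72.8% and 93.1% with FSH and FBS and 60.2%, 68.8% and 68.7% without. Its level hardly varied, at 190, 196 and 200 FPKM against 183, 190 and 198 FPKM. The 1574-base form was at 47.7 FPKM in treated library 1, unlisted in the other treated libraries and at 107, 86.2 and 20.9 FPKM in the untreated ones. Snrnp70, the U1-70K protein, had a form with 2366 extra bases at 47.1%, 56.5% and 22.4% against 51.3%, 53.6% and 66.4%, and these overlapped. Srsf3, another SR protein, had long forms listed in treated library 2 and untreated libraries 2 and 3 only.

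A list of genes with textbook alternative splice sites gave 9 of 40 genes with a set, 13 sets and 10 tested, of which Srsf7 and Clk1 held the 2 separated ones (20%). Bcl2l11, which encodes the pro-apoptotic protein BIM, had donor forms of 137 and 395 bases, and the longer one was at 64.8%, 67.2% and 0% against 80.9%, 79.4% and 74.0%. This set was not tested, since its total was 0.542 FPKM in treated library 3 against 7.86 and 7.18 FPKM in the other treated libraries. Sf1, the branch-point binding protein, had acceptors 5 bases apart with the longer form at 96.0%, 93.9% and 86.9% against 99.3%, 99.7% and 91.5%. Vegfa, the vascular growth factor, had its 30-base form at 146, 151 and 12.8 FPKM against 23.0, 22 and 8.69 FPKM, and its 1818-base form at 51.8 FPKM in treated library 3, 1.57 FPKM in untreated library 2 and unlisted elsewhere. Cttn and Zfr overlapped between the groups, and both Tpm1 sets were listed in untreated library 2 alone.

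Genes of the ovarian programme had few members. Of 22 genes of cumulus expansion and EGF-like signalling only Adam17, a sheddase of EGF-like ligands, had a set, and its 153-base form was at 7.95%, 48.1% and 0% against 58.4%, 54.0% and 0%, with library 3 at 0% in both groups. Of 31 genes of steroid hormone and cholesterol synthesis 4 had a set. Cyp11a1, the side-chain cleavage enzyme that starts steroid synthesis, had a form with 1099 extra bases at 8.21%, 7.85% and 4.61% against 10.3%, 9.29% and 8.96%. Both Cyp11a1 forms were higher in FPKM with FSH and FBS, with a set total of 175, 162 and 233 FPKM against 34.8, 40.1 and 58.7 FPKM (log2 fold change 2.06, limma adjusted p = 0.0789). Nr5a1, the nuclear receptor SF-1, was the 1 granulosa marker of 15 with a set, and its shorter donor form led at 88.1% to 100% in all libraries. Srebf1, a regulator of sterol and fatty acid synthesis, had donors 15 bases apart with the longer form at 69.0%, 68.4% and 25.6% against 76.7%, 76.7% and 51.7%, and library 3 was low in both groups.

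Other lists held few sets, so their counts of separated sets say little beside the 20.3% of all tested sets. Of 47 apoptosis genes 3 had a set (Bcl2l11, Htra2 and Trp53), and 0 of the 1 tested was separated. Of 46 genes of translation 8 had a set and 0 of 5 tested were separated, with a median largest change of 1.1 points against 9.81 over all sets. Of 34 genes of the ER stress response 1 had a set, Sel1l of the ER degradation machinery, whose 168-base donor form was at 22.1%, 20.6% and 94.5% against 19.7%, 21.5% and 35.2%. Of 52 genes of the cytoskeleton, junctions and matrix 5 had a set and 2 of 3 tested were separated. In Spag9, a scaffold of JNK signalling and motor proteins, the form with 1155 extra bases was at 5.2%, 0% and 0% against 18.7%, 12.6% and 15.4%. In Tjp1, the tight junction protein ZO-1, the 84-base donor form was at 36.1%, 36.3% and 69.7% against 28.9%, 34.0% and 18.8%.

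Set totals were compared on the same 723 sets to show where the whole set moved. limma called 3 sets (0.415%), 2 higher (0.277%) and 1 lower (0.138%) with FSH and FBS, and 93 passed at an unadjusted p under 0.05. The median log2 fold change of totals was 0.18. With the replicate number as a block, limma called 25 sets (17 higher and 8 lower), and after median-of-ratios rescaling of the libraries 7 (3 higher and 4 lower). These totals are sums over alternative exons and not gene levels.

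Nupr1, a small stress-induced chromatin protein, rose from 77.7, 87.1 and 63.2 FPKM in untreated libraries to 580, 642 and 1176 FPKM (log2 fold change 3.54, limma standard error 0.48, Benjamini-Hochberg adjusted p = 0.0072). Within it the 296-base acceptor form was at 40.7%, 49.1% and 32.9% with FSH and FBS and 51.3%, 53.8% and 62.0% without, and the 144-base form took most of the rest. The shares were separated between the groups and did not pass (limma adjusted p = 0.889 for the 296-base form). RefSeq also places Gm39087 in this stretch, and its part in the Nupr1 values was not tested. Mrap, the accessory protein of the ACTH receptor, rose from 25.5, 26.7 and 39.5 FPKM to 170, 166 and 302 FPKM (log2 fold change 2.77, limma standard error 0.47, adjusted p = 0.032), while its 100-base form stayed between 92.9% and 99.3% of the set in all libraries. Without untreated library 3 both calls were lost (limma adjusted p = 0.056 for each) at log2 fold changes of 3.35 for Nupr1 and 3.06 for Mrap. That fit leaves 1 untreated sample, which is assumed to vary like the treated ones. The Mrap call was also lost without treated library 2 (limma adjusted p = 0.091, log2 fold change 2.78) or untreated library 1 (0.075, log2 fold change 2.75). Mrap was named because its total passed.

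Of the 10 sets with the highest totals, all but Nupr1 and Sqstm1 were nearly single-form, with a mean leading share of 94.8% to 98.6% against 48.3% in Nupr1 and 64.6% in Sqstm1. Eef1a1, the elongation factor that brings tRNA to the ribosome, had its 257-base form at 4041, 3942 and 2975 FPKM with FSH and FBS and at 4822 and 4226 FPKM in untreated libraries 1 and 3, with no form listed in untreated library 2, and its 207-base form was listed in treated library 3 alone. The 264-base form of Rplp0, a ribosomal stalk protein, held 96.3% to 99.4% of its set, and the 136-base form of Rpl3, a large-subunit protein, 95.6% to 98.9%. Rpl10a (93.1% to 97.5%), Akr1cl (91.2% to 100%) and the translation initiation factor Eif4a1 were as one-sided, as was Ybx1, an RNA-binding protein, whose longer form was at 2.69%, 2.94% and 12.6% against 3.92%, 3.72% and 5.38%. A set annotated to Mir3091 lies in a stretch that RefSeq also gives to Rps21, and its source cannot be told apart. In the Rpl3 stretch RefSeq also places LOC115488570.

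Sqstm1, the autophagy receptor p62, was less one-sided. Its 196-base donor form was at 46.0%, 47.4% and 98.6% with FSH and FBS and at 53.7%, 42.4% and 99.6% without. The shorter 82-base form was at 224, 254 and 7.49 FPKM against 91.9, 96.3 and 0.780 FPKM. Library 3 of both groups thus used almost only the longer form, and the groups overlapped. In Dab2, an endocytic adaptor, 6 forms made up a bridged set, and its 63-base, 654-base and 154-base forms do not touch each other. One transcript could therefore enter that total through several exons, so even shares there do not show a balanced choice of exon end. The leading form held a mean of 32.7%. The 154-base form was at 35.1%, 29.8% and 37.5% against 29.4%, 27.2% and 24.5%, a narrow separation. In Gas2l1, also a bridged set, the 1269-base form was at 0%, 81.7% and 0% against 61.6%, 0% and 71.0%. In Ppdpf, Slc35c2 and Trafd1 the order of the forms also changed from library to library.

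Markers checked the labelled cell type. Of 15 granulosa and cumulus markers 11 were listed in all 6 libraries, and Foxl2 and Inhbb in none. The summed level of the markers was 776 to 1138 FPKM with FSH and FBS and 1394 to 1613 FPKM without. Gja1, the highest in untreated libraries, was at 446, 448 and 240 FPKM against 968, 995 and 709 FPKM. Inha, Amhr2, Fshr and Wt1 were also lower in every treated library, while Fst, Nr5a2 and Amh were higher in every one. The sum therefore does not stand for each marker. Of 20 oocyte markers, 3 to 6 were listed in treated libraries and 9 to 11 in untreated ones, and Zp1, Zp2 and Bmp15 in none. Their sums were 7.75 to 18.1 FPKM against 16.6 to 23.5 FPKM. Gdf9 was at 0.26, 0.157 and 6.66 FPKM with FSH and FBS and at 4.16, 5.10 and 6.06 FPKM without. Oosp1, Dppa3, Ooep and Zar1 were unlisted in treated libraries 1 and 2 and listed in all other libraries. Tle6 went the other way, at 5.56, 4.62 and 7.42 FPKM against 1.49, 2.17 and 4.24 FPKM, and Kit overlapped. Of 10 leukocyte markers 3 to 6 were listed in any library (sums 2.96 to 7.19 against 8.97 to 12.6 FPKM), with Itgam and Csf1r in none. Theca, stroma and endothelial markers (3 to 6 of 13 listed) summed to 21.1 to 27.1 FPKM against 65.8 to 81.7 FPKM, mostly Acta2, and Lum and Kdr were listed in none. Acta2 and Dcn were lower in every treated library, and Tagln overlapped between the groups. Cdh5 went the other way, at 2.06, 2.63 and 2.58 FPKM with FSH and FBS and unlisted in every untreated library. None of the oocyte, leukocyte or stroma markers had an alternative exon end set, and the part of other cells in the shares was not tested. In such bulk samples fewer cells of a type and less RNA per cell cannot be told apart.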

How the data were processed

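RNA of 3 libraries per group was analysed. The deposited tables hold, per the file headers, 1 transcript event per line with its type, position, gene and the FPKM that the authors computed for it. HISAT2 2.0.1 aligned the reads (per the submitters' processing notes). The sources used here give neither the assembler nor the build. FPKM carries no depth, so no counting interval is given. Symbols matched all 891 genes, and 94.6% of the 968 sets with a RefSeq position lay in the named gene.

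Sets were chains of overlapping forms of one gene and strand. Shares were tested with limma 3.58.1 in R 4.3.3 on log2((form + 0.5)/(rest of the set + 0.5)) and totals on log2(total + 1), two-sided, with a trend on the mean log2 set total and Benjamini-Hochberg adjustment over all forms or sets. A fold change on these scales understates that of low sets. The share fit was tested on simulated data. Mean shares were compared by exact permutation over samples. The labels do not say whether the libraries of a group are separate cultures or animals. The spread behind each p-value is that between these libraries and may be technical.

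Same-numbered libraries of the groups deviated together in set totals (r = 0.277, 0.206 and 0.441 for numbers 1, 2 and 3). Across numbers 1 and 2 the totals gave r = 0.235 and 0.297, and between library 3 and another number r was -0.365 to -0.268. Deviations were taken from the mean of each group's 3 libraries, so these values depend on each other. They set library 3 apart from libraries 1 and 2 in both groups, and they do not pair numbers 1 and 2 singly. In log ratios of forms r was -0.04, -0.01 and 0.11 for the same numbers and 0.12 and 0.10 across numbers 1 and 2. The block is therefore given beside the totals, and for shares only among the settings tried.

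Members and lists were chosen with earlier results of these data known. Named were called sets, up to 15 uncalled sets with the largest separated difference and a total of at least 5 FPKM, the 10 highest totals, up to 4 sets per gene list, all textbook sets, the 3 sets with most forms and the 5 most even ones. Others named were chosen after their values were seen: the sets with sites in RefSeq windows, the turned sets, the sets with extra stretches over 500 bases, separated sets of the gene lists, and Mrap. A few sets, 1 of them with a called total, are not reported here.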

Additional observations from a re-analysis of the deposited data

How the results depend on the processing

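The mean share of the longer form was lower with FSH and FBS under every setting tried, by -4.47 to -3.44 points when single libraries were left out, and by -9.97 to -5.93 points for differences of 100 bases or more. The mean share of the leading form was 77.4% ± 2.91 against 75.8% ± 1.78 (exact permutation p = 0.667); its difference of 1.54 points ranged from -0.72 to 2.92 when single libraries were left out and reversed to -0.72 without treated library 3. Share calls stayed at 0 in all settings except the share itself (4 forms). Total calls went from 3 to 52 with all 6 libraries separate (37 higher, 15 lower), 25 with the replicate block, 9 at a total of at least 5 FPKM, 7 after median-of-ratios rescaling (3 higher, 4 lower) and 2 to 18 when single libraries were left out, 18 of them without treated library 3; leaving out a library 3 leaves 1 sample in that arm, which is assumed to vary like the other group. The cause was not tested beyond the number of samples and sets each setting uses. Sets with a lower longer form numbered 115 to 150, and those with a higher one 54 to 61, when single libraries were left out, where fewer libraries need to be separated, and 54 and 19 over the 358 sets listed everywhere. For shares, r between same-numbered libraries was -0.04, -0.01 and 0.11. The replicate block in limma gave 0 share calls (75 forms at an unadjusted p under 0.05, lowest adjusted p 0.798). The Mrap total was also lost with no minimum total (limma adjusted p = 0.086). Taking the largest of repeated rows was not run, because no event had more than 1 row in a library.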
